A study of Ginkgo biloba with 9 samples.

Results

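A set of 121 gene models, of 43834 in the deposited table, stepped up in both intervals of autumn in Ginkgo biloba, a tree outside the flowering plants that sheds its foliage after yellowing. RNA was sequenced from green leaves (mature stage, September 12), turning leaves (October 26) and yellow leaves (senescence stage, November 8), with 3 libraries per stage. From green to turning leaves 44 days passed, here the first interval, and from turning to yellow leaves 13 days, the second. All leaves came, per the labels' protocols, from 3 healthy adult trees grown outdoors. The labels do not say which library came from which tree, so a p-value covers only the spread among these 9 libraries, which may be technical, and stage cannot be told apart from sampling date.

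The members were chosen by their own levels in these 9 libraries. N is the read count of a model divided by the size factor of its library (median of ratios, as in DESeq2), so it is not corrected for transcript length. Every turning library had to reach at least 2 times the highest green N, and every yellow library at least 2 times the highest turning N. Every yellow library also had to reach an N of 270, and at least 1 green library an N of 27. Models among the 100 highest of green or of yellow leaves were left out. The rise, its size in either interval and the absence of overlap between stages therefore follow from the choice and are given as a description, with no test.

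Leaf senescence is an ordered programme in which a leaf is dismantled before it is shed. Chloroplasts and their proteins are broken down, green chlorophyll is lost while carotenoids remain, and nitrogen, phosphorus and sugars are exported to the perennial parts of the tree. Many transcripts fall during this programme, while others, known in flowering plants as senescence-associated genes, rise. The files do not pair the identifiers with gene names or functions, so no role is given to any member, and only 2 identifiers are printed. The leaf tissue was not checked against cell type markers for the same reason. These are bulk leaf samples, in which more RNA per cell and more cells of a type cannot be told apart.

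Of the 32355 models with at least 1 count, 1381 met the criterion on the steps, including models at 0 in green leaves. Of these, 157 also reached the yellow minimum, and 129 of those reached the green minimum. The exclusion of the most abundant models took away 8, all of them among the 100 highest of yellow leaves, with mean N in yellow leaves from 43486 to 202274. The green minimum left out 28 models whose mean N in green leaves was at most 13.9, 4 of them with 0 counts there. The weakest member on the first step had a gap of 2.01 times between the highest green and the lowest turning library, and the nearest model outside had 1.99 times. On the second step the nearest values were 2.003 times inside and 1.98 times outside. The lowest yellow N of a member was 336 and the nearest model outside reached 177. On the green minimum the nearest values were 28.6 inside and 22.6 outside. The boundary of the set is soft on the steps, since 35 models lay within 10% below the first step limit and 18 below the second. Without turning library 1 the rule found 192 models, among them all 121 members. Without green library 1 it found 128, of which 117 were members. Scaling by library totals alone found 51, of which 50 were members.

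The members moved up in the order of N as leaves yellowed, from a median place of 10965 among all 43834 models in green leaves to 5005 in turning and 1305 in yellow leaves. Their median N was 210, 193 and 264 in green libraries 1, 2 and 3. It was 900, 852 and 1174 in turning libraries 1, 2 and 3. In yellow libraries 1, 2 and 3 it was 4808, 5550 and 6136. Library 3 had the highest median in every stage. By order of mean N over all models, which is an order of read numbers and not of transcripts per length, none of the members was among the 1000 highest in green leaves. In turning leaves 8 were, and in yellow leaves 54. Together the members took 0.208% ± 0.028 of all counts at the green stage, 0.748% ± 0.097 at the turning stage and 2.58% ± 0.29 at the yellow stage (SD, n = 3 libraries each). The single yellow libraries held 2.38%, 2.44% and 2.92%.

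**Figure D1:**
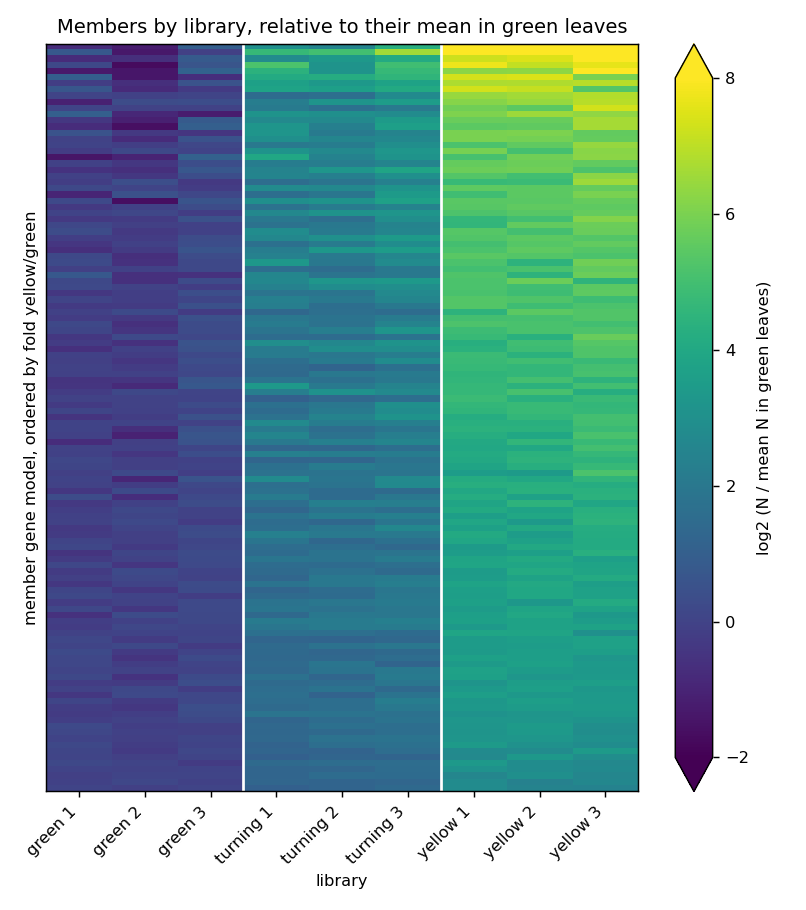
Each row is 1 of the 121 members, ordered by its fold change from green to yellow leaves, and each column is 1 library; colour gives log2 of N over the mean N of that member in green leaves, limited to -2 to 8. The colour steps up at both white lines, and the members at the top reach the end of the scale in yellow leaves.

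The member with the highest mean N in yellow leaves was Gb_02113. Its N was 773, 846 and 685 in green libraries 1, 2 and 3. In turning libraries it was 4928, 6820 and 7113. In yellow libraries it was 28471, 32390 and 37699. The libraries of a stage lay close together compared with the steps, with means of 768 ± 80.4, 6287 ± 1186 and 32853 ± 4631 (SD, n = 3). Its log2 fold change, fitted with edgeR, was 3.04 ± 0.20 from green to turning and 2.35 ± 0.20 from turning to yellow leaves (SE). Gb_02113 thus had the larger step in the first interval. By order of mean N it moved from place 5661 in green leaves to 646 in turning and 109 in yellow leaves, just below the 100 models left out.

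The member with the largest rise was Gb_14879. Its N was 8.75, 6.37 and 28.6 in green libraries 1, 2 and 3, from 13, 7 and 38 reads. In turning libraries it was 115, 83.4 and 285. In yellow libraries it was 15531, 10615 and 48118. Library 3 stood above the other two in all 3 stages, while the stages did not overlap. The mean in yellow leaves, 24755 ± 20382, was 1698 times the mean in green leaves, 14.6 ± 12.2 (SD, n = 3). Most of this rise fell in the last 13 days, with log2 fold changes of 3.45 ± 0.83 from green to turning and 7.22 ± 0.91 from turning to yellow leaves (SE, edgeR). In this fit, with stage as the only term, leaving out 1 library moved these values. From green to yellow leaves the log2 fold change was 10.68 ± 1.07 (SE) with all libraries, 9.77 without yellow library 3 and 11.61 without green library 3. The first step was 4.39 without green library 3 and 2.75 without turning library 3. The second step was 6.31 without yellow library 3 and 7.92 without turning library 3. Taken between libraries of the same number, the steps differed less. In numbers 1, 2 and 3 the log2 ratio of N was 3.72, 3.71 and 3.32 for the first step. For the second step it was 7.08, 6.99 and 7.40.

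**Figure D2:**
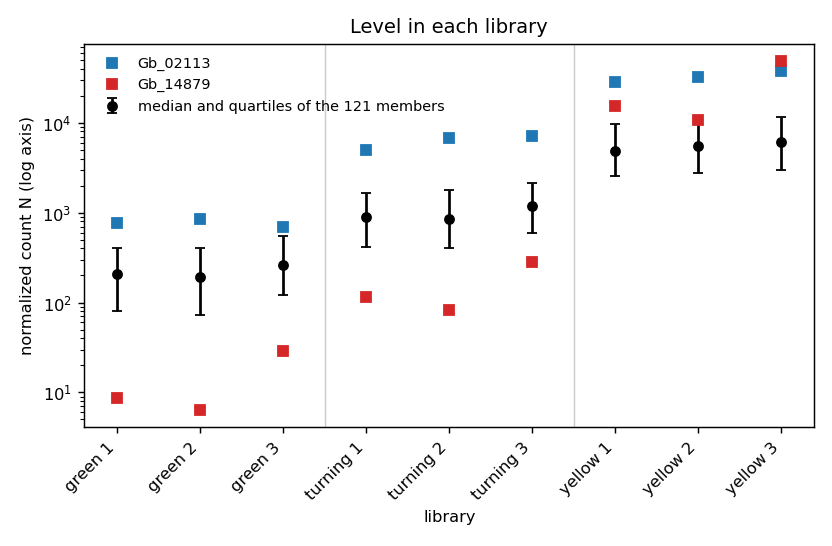
Normalized counts N (log axis) in each of the 9 libraries for the members (black points, median; bars, lower to upper quartile) and for Gb_02113 and Gb_14879 (squares). Gb_02113 lies above the upper quartile in every library, whereas Gb_14879 goes from below the lower quartile in green and turning leaves to above the upper quartile in yellow leaves 1 and 3.

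The rise from green to yellow leaves ran from 6.06-fold to 1698-fold, with a median of 24.9-fold and quartiles of 13.2 and 41.6. It was under 10-fold for 13 members, 10- to 30-fold for 59, 30- to 100-fold for 40 and at least 100-fold for 9. The smallest rise belonged to the member that also had the lowest mean N in yellow leaves. Its N was 63.3, 57.3 and 64.8 in green, 130, 143 and 164 in turning, then 442, 346 and 336 in yellow libraries 1 to 3. The second largest rise was 341-fold. That member had an N of 31.0, 7.28 and 17.3 in green, 487, 584 and 1817 in turning, and 5828, 6757 and 6364 in yellow libraries. Its turning libraries spread widely while its yellow libraries agreed closely. The 9 members with at least a 100-fold rise started low, with a median of 40.6 for the mean N in green leaves, against 505 for the 13 members under 10-fold. A low level in green leaves enters the fold change as its denominator, so the relation is partly built in. No member was at 0 in any library, and the lowest count was 7 reads. Green counts summed over the 3 libraries ran from 58 to 8292, with a median of 915.

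Within a stage the members varied by amounts that the rule limits, since stages may not overlap. The SD of log2(N + 1) over the 3 libraries had a median of 0.31 at the green, 0.28 at the turning and 0.26 at the yellow stage. For the other tested models within the members' range of mean N, the medians were 0.20, 0.22 and 0.27. That range was of means over all 9 libraries, so these models were not matched to the members' level within each stage. Over members in yellow leaves the SD ran from 0.041 to 1.13. The narrowest was a member at 3768, 3753 and 3579 in yellow libraries 1 to 3, and the widest was Gb_14879. The widest stage was green for 44 members, turning for 39 and yellow for 38.

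Fitted on all 23042 models that passed the filter on low counts, all 121 members were higher in turning than in green leaves (edgeR adjusted p below 0.05), as were 11.8% of the models tested. All 121 were higher in yellow than in turning leaves, as were 20.5% of those tested, and over the whole season yellow leaves exceeded green leaves for all 121, as for 30.2%. The rule used these contrasts, and nothing is read from the counts. A call in both intervals was made for 6.67% of the models tested, 1537 in number, of which the members made up 7.87%. Of the other 1416 models called higher in both intervals, 1359 missed the criterion on the steps. Their median log2 fold changes were 0.98 and 1.14 in the first and second interval, against 2.11 and 2.30 for the members, a difference that the choice of members sets.

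The median steps of the members were of similar size on the log scale, although the intervals differed in length. The rule holds both steps to at least 2-fold, and single members differed more. The median rise was 4.30-fold from green to turning leaves (2.30 to 52.0 over members) and 5.03-fold from turning to yellow leaves (2.45 to 154). The second step was larger than the first for 76 members and smaller for 45, and the steps were within 0.5 log2 of each other for 60. This balance depended on the scaling, since with library totals alone the second step was larger for 55 members and smaller for the rest. Within each set of same-numbered libraries, the second step was larger in all 3 sets for 49 members, the first step was larger in all 3 for 16, and 56 were mixed. With library totals the second step was larger in all 3 sets for 29 members and the first for 31. At the turning stage a median of 0.476 of the log2 rise had been reached (0.293 to 0.677 over members), and 0.522 with library totals. In N itself, a median of 15.9% of the difference between yellow and green leaves had been reached by then. The member with the most even steps also had the highest mean N in green leaves. Its N was 1873, 1635 and 2794 in green, 5819, 6511 and 8497 in turning, and 21320, 23737 and 22966 in yellow libraries 1 to 3. Its means rose 3.30-fold and then 3.27-fold. Leaving Gb_14879 aside, the member with the largest excess of the second step rose 3.87-fold and then 22.6-fold. It was level within green leaves, at 45.8, 43.7 and 42.9, and within turning leaves, at 187, 141 and 184. In yellow leaves its libraries stood at 2534, 1951 and 7108, with library 3 far above the others. The largest excess of the first step belonged to the member with the second largest rise, whose means rose 52.0-fold and then 6.56-fold. Per day, the median log2 rise was 0.048 in the first interval and 0.179 in the second. The rule asks for at least a 2-fold rise in each interval, so with these interval lengths a lower daily rate in the second interval would need a first log2 step over 3.38 times the second, and the direction is nearly fixed by the choice of members. These rates are means over an interval between single sampling days.

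**Figure D3:**
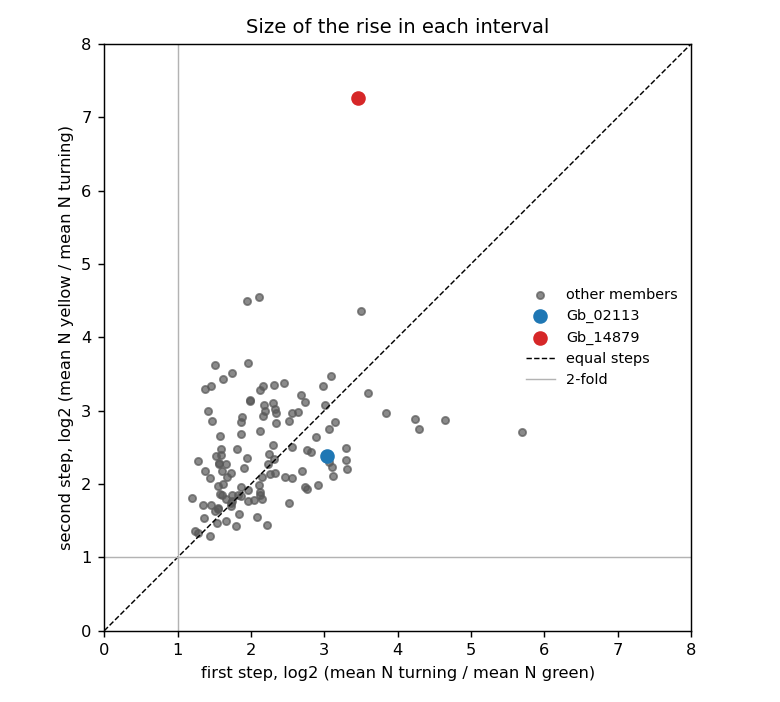
Log2 ratio of mean N from green to turning leaves (horizontal) and from turning to yellow leaves (vertical) for each of the 121 members; the dashed line marks equal steps and grey lines mark 2-fold. Of the members, 76 lie above the dashed line, and Gb_14879 stands apart from the others with the largest second step.

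Several members carried neighbouring identifier numbers, a feature the rule did not use and that was noticed after the values were seen. The rise over the stages that neighbours share follows from the rule, and their likeness was not compared with that of other pairs of members. Of the 115 members with Gb_ identifiers, 11 had another member at the next or the previous number. Within 1 run of 6 consecutive numbers 5 were members, and no other window of 6 numbers starting at a member outside that run held more than 2. The 5 models of the run had mean N in green leaves from 91.4 to 336 and rose 19.0- to 33.8-fold to yellow leaves. One of them had an N of 85.5, 69.1 and 120 in green, 281, 402 and 672 in turning, and 2523, 2786 and 2504 in yellow libraries 1 to 3. Another had 329, 298 and 380 in green, 1056, 1180 and 2248 in turning, and 6397, 6687 and 6062 in yellow libraries. In all 5, turning library 3 was the highest of its stage and turning library 1 the lowest. Among all 121 members, turning library 3 was the highest for 83 and turning library 1 the lowest for 66, so this order is common in the set. Outside the run, 3 further pairs of members had consecutive numbers. In 2 of these pairs both members had their lowest yellow N in library 3. Among all 121 members yellow library 3 was the lowest for 32 and the highest for 64. The members of 1 of these pairs stood at 2980, 2829 and 2237 and at 3768, 3753 and 3579 in yellow libraries 1 to 3. In the other, the first had 81.4, 15.5 and 24.8 in green and 702, 746 and 943 in turning libraries. Its yellow libraries stood at 6616, 6940 and 2573. Its partner had 31.0, 10.9 and 15.8 in green, 265, 241 and 324 in turning, and 3099, 2645 and 777 in yellow libraries. In the remaining pair yellow library 3 was the highest for both, at 19910 and 19554 against 12475 to 15853 in yellow libraries 1 and 2. The sixth model of the run had at most 3 reads in any library and was no member. The sources used here do not say how identifiers were numbered, and reads shared between near-identical copies could not be recognised, so the 5 may not be independent measurements. The remaining 6 members, or 4.96%, carried the other prefix of the table, against 6.83% of the models tested. These 6 rose 17.1- to 55.3-fold.

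The rule named no library of a stage, though a single green library could meet its green minimum. Here the members shared a direction, as did other models called higher in both intervals. Libraries of the same number deviate together across the whole table, and a term for library number was therefore tested in a model with stage. It was called for 10 of 121 members (8.26%), close to the 6.80% of all models tested (edgeR quasi-likelihood test, adjusted p below 0.05). Among the other 1416 models called higher in both intervals it was called for 39 (2.75%), and number 3 was higher in 38. Of the 16 called among models lower in both intervals, number 3 was lower in 13. In all 10 called members, library number 3 was above the mean of numbers 1 and 2, a result given by 3.45% of the models tested. The strongest case was Gb_14879, with a log2 difference of 1.77 ± 0.12 (SE; edgeR adjusted p = 0.00198 for the number term), and its N was highest in library 3 in 3 of 3 stages. For Gb_02113 the difference was 0.13 ± 0.14 (SE) and the term did not pass (edgeR adjusted p = 0.474). Number 3 was higher by 0.61 to 1.19 log2 in the other 9 called members. The DESeq2 likelihood ratio test called the term for 24 members (19.8%), against 15.4% of all models. Without green library 1, 2 or 3 the count of called members was 3, 4 and 3, against 3.04%, 1.88% and 2.49% of all models. It was 2 without turning library 2, 6 without turning library 3 and 4 without yellow library 2, against 1.24%, 3.57% and 2.19% of all models.

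Without regard to a call, the fitted difference put number 3 above the mean of 1 and 2 for 104 members, or 86.0%, with a median of 0.31 log2. Over all models tested the share was 51.1% and the median 0.01. Among the other 1416 models called higher in both intervals the share was 78.1% with a median of 0.16, and among the 1577 called lower in both intervals it was 21.5% with a median of -0.20. Models are not independent replicates, and the difference between these groups was not tested. Library 3 held the highest N of its stage for 72 members at the green, 83 at the turning and 64 at the yellow stage. These are 59.5%, 68.6% and 52.9% of the members, against 37.5%, 35.4% and 38.6% of the models tested. In all 3 stages at once this held for 30 members, or 24.8%, against 11.9% of the models tested. Among the other 1416 models called higher in both intervals it held for 22.4%, near the share of the members. Among the 1577 called lower in both it held for 2.03%. The direction of number 3 was singled out after the data were seen.

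**Figure D4:**
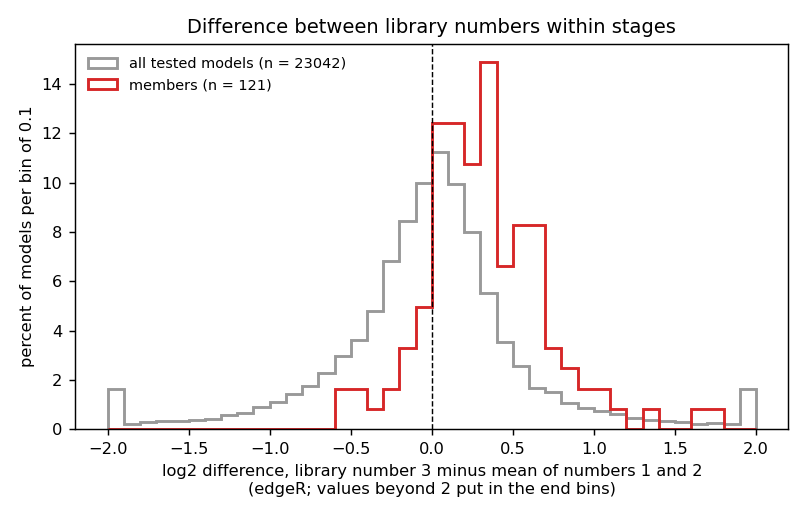
Distribution of the fitted log2 difference between library number 3 and the mean of numbers 1 and 2 within stages, as percent of models per bin of 0.1, for the 121 members (red) and all 23042 tested models (grey). The members lie to the right of 0 in 104 cases, whereas the tested models centre on 0.01.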

How the data were processed

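The deposited table gives whole-number read counts for each gene model and library, not normalized by the authors. CASAVA 1.8, HISAT2 2.0.4 and HTSeq 0.6.1 appear in the submitters' processing notes without their roles. Genome build, annotation, strand setting and read filters were not given in the sources used here. Library totals ran from 23766331 to 32319325 counts. Same-stage libraries differed beyond sampling noise (chi-square per degree of freedom 43.9 to 138), so each counted as 1 replicate.

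Members were found with size factors computed over all 9 libraries. Models kept by filterByExpr (minimum count 10, minimum total 15), 23042 in all including every member, were fitted with edgeR 4.0.16 in R 4.3.3 (TMM, robust quasi-likelihood, stage as the only term), and p-values were adjusted by Benjamini-Hochberg over all of them. The fitting code was tried on simulated counts with changes set in advance, which says nothing on the steps of the members. The library-number term was tested in a model of stage plus number. Deviations from stage means of log2(N + 1) correlated across models with r from 0.25 to 0.66 in all 9 same-numbered pairs and from -0.52 to 0.02 in the others, so the numbers were read as pairing the libraries, from the data and not the labels. Alternatives were other scalings, DESeq2 1.42.0, limma-voom (limma 3.58.1), other filters, the replicate block and each library left out. Members, lists and tests were chosen with earlier results of these data known. The rule for printed identifiers took the member with the highest mean N in yellow leaves and the one with the largest rise. Gene lists and cell type markers set as name patterns could not be applied without names.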

Additional observations from a re-analysis of the deposited data

How the results depend on the processing

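With the replicate block, 121 members were called higher in each of the 3 stage comparisons, as without it, while 17.6%, 24.9% and 33.4% of all models were (turning versus green, yellow versus turning, yellow versus green). Over all other alternatives the counts ran from 110 to 121 for turning versus green, 119 to 121 for yellow versus turning and 121 for yellow versus green leaves, against 4.36% to 16.01%, 10.4% to 24.1% and 16.5% to 32.6% of all models. The number of members was 51 with library totals, 407 with a minimum step of 1.5 times, 26 with 3 times, 774 with stage means and 284 with steps taken within library numbers (the replicate block of the rule). With 1 library left out it ran from 127 to 192. A weaker step criterion admits more models by construction. Leaving out green 1, green 3 or yellow 1 also lost members, with 117, 118 and 120 of the 121 still found. The library-number term was called for 24 members by DESeq2 (15.4% of all models) and for 2 to 13 with 1 library left out (1.24% to 6.995% of all models); the cause was not tested. The share of the log2 rise reached at the turning stage was 0.522 with library totals, 0.458 within library number 1 and 0.442 (without turning library 3) to 0.484 with 1 library left out. Within library number 3 the members held 0.240%, 0.856% and 2.92% of counts in green, turning and yellow leaves. Number 3 was above the mean of 1 and 2 for 95 to 108 members over the alternatives, added after seeing the data. The median log2 fold change from green to yellow leaves was -0.06 over all models and 4.61 over members with TMM, and -0.78 and 3.87 with library totals. Counts as low as 7 reads in a green library limit the precision of the largest fold changes.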

Other observations

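The models at the identifier numbers next to the members, other than members, were looked at after the data were seen. There were 216 such models, of which 118 passed the filter on low counts. Of these 118, 49 had a higher level in yellow leaves than in green (41.5%) and 35 a lower one (29.7%), against 30.2% and 31.9% of all models tested (edgeR adjusted p below 0.05). A call of higher in both intervals was made for 14 of these 118, against 1537 of all 23042 models tested (6.67%). The difference from all models was not tested.

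The 28 models left out by the green minimum alone reached mean N in yellow leaves from 484 to 24423, a range that overlaps that of the members, 375 to 32853.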
